A study of Homo sapiens with 6 samples.

Results

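Interferon-stimulated genes were examined in MDA-MB-231, a human triple-negative breast cancer cell line, as the 49 genes of the deposited table whose symbol was on a list of genes known to be induced by interferon. All 49 were found among the 61806 genes of the table. RNA-seq was performed on 6 libraries, 2 each of the lines titled shNC, shHMGA2-1 and shHMGA2-2. The shHMGA2 lines carry short hairpin RNAs against HMGA2, an architectural chromatin protein, and shNC is the control. Per the study's methods, knockdown cells were made with TRC2-pLKO lentivirus, selected with puromycin and grown from a single clone, so each shHMGA2 line is 1 clone and carries any other difference of that clone; for shNC this is not stated. The labels name no interferon or virus treatment of any line. The library names mark the controls as wild type and give the libraries titled shHMGA2-1 the mark SH2. Those of the libraries titled shHMGA2-2 follow another scheme and hold no mark of a hairpin. The groups here follow the sample titles.

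Interferons are secreted proteins that bind receptors at the cell surface and, through the kinases JAK1 and TYK2, activate transcription factors of the STAT family, among them STAT2, which joins IRF9 in a complex that binds a DNA element named ISRE (interferon-stimulated response element) in the promoters of interferon-stimulated genes. Interferon gamma acts on another element, GAS. The products sense viral RNA or DNA, block the entry, translation, replication or release of viruses, present antigen and feed back on the pathway itself. Many of these genes also have a basal level in tumour cells that are not exposed to interferon.

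Libraries held 16461178 to 17167293 counts. Replicate libraries differed beyond sampling noise (chi-square divided by its degrees of freedom 2.05 in shNC, 6.60 in shHMGA2-1, 3.05 in shHMGA2-2), so no library was counted as a copy of another. HMGA2, the targeted gene, had 2126 and 2161 counts in shNC, with 858 and 989 in shHMGA2-1 and 435 and 482 in shHMGA2-2. Markers of the line (VIM, CD44, EGFR, CAV1 and AXL) had 3145 to 38106 counts in each library. Of the receptors whose low level defines triple-negative tumours, ESR1 had 2 to 12 counts and PGR 0 to 2, while ERBB2 had 1126 to 1909 and was not rare. Counts were scaled to the library with TMM factors of 0.958 to 1.05 and are given as CPM (counts scaled to a common library total). FPKM, the deposited counts per kilobase of exon over the raw library total, is used wherever levels of different genes are compared. It carries no TMM factor, so differences between lines in FPKM can depart from the fold changes. A count of 0 allows up to 3 counts, which is 0.172 to 0.184 CPM by library and covers counting error only. In the tests below a gene rose or fell when edgeR's quasi-likelihood test gave an adjusted p under 0.05 over 16110 genes, and was called when it also changed by at least 2-fold.

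The interferon-stimulated genes did not move as a block. In shHMGA2-2, 25 of the 49 genes rose against shNC and 13 fell, where 29.5% of all tested genes rose and 29.2% fell. In shHMGA2-1, 14 rose and 16 fell, where 15.8% of all tested genes rose and 17.7% fell. The called genes numbered 16 higher and 4 lower in shHMGA2-2 (11.7% and 9.65% of all tested genes) and 6 higher and 3 lower in shHMGA2-1 (4.89% and 3.59%). The median log2 fold change of the 49 genes was 0.29 in shHMGA2-2, beside 0.03 over all tested genes, and 0.03 in shHMGA2-1, beside 0.01. Both comparisons use the same shNC libraries. All 49 genes passed the filter on low counts, but 5 did so only with the libraries of the line in which they were highest, namely BST2, RSAD2, CMPK2 and XAF1 with shHMGA2-2 and IFI44L with shNC. A gene that passes in that way had to differ, so the values of these 5 are given as a description and their tests as no support. Of the other 44 genes, 21 rose and 12 fell in shHMGA2-2 with 12 called higher and 3 lower, and 14 rose and 15 fell in shHMGA2-1 with 6 called higher and 2 lower.

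Compared directly, 24 of the 49 genes were higher and 8 lower in shHMGA2-2 than in shHMGA2-1, where 24.5% of all tested genes were higher and 25.7% lower. Of these, 12 higher and 1 lower were called (7.83% and 7.27% of all tested genes). The median log2 difference was 0.43, beside -0.00 over all tested genes. Of the 44 genes that did not pass the filter through 1 line alone, 20 were higher and 8 lower, with 8 and 1 called. With the 4 shHMGA2 libraries taken as 1 group against shNC, the difference between the knockdown lines counts as error, and the common coefficient of variation rose from 0.0583 to 0.291. Then MX1, OASL and USP18 were called higher and GBP1 lower, where 1.72% and 1.37% of all tested genes were called. DTX3L, PARP14 and SP100 had adjusted p-values of 0.0115, 0.0331 and 0.0419 in that test with changes under 2-fold, and fell. Samples that are not stated to come from separate cultures may differ only technically, so these p-values measure the spread between the libraries at hand.

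**Figure D1:**
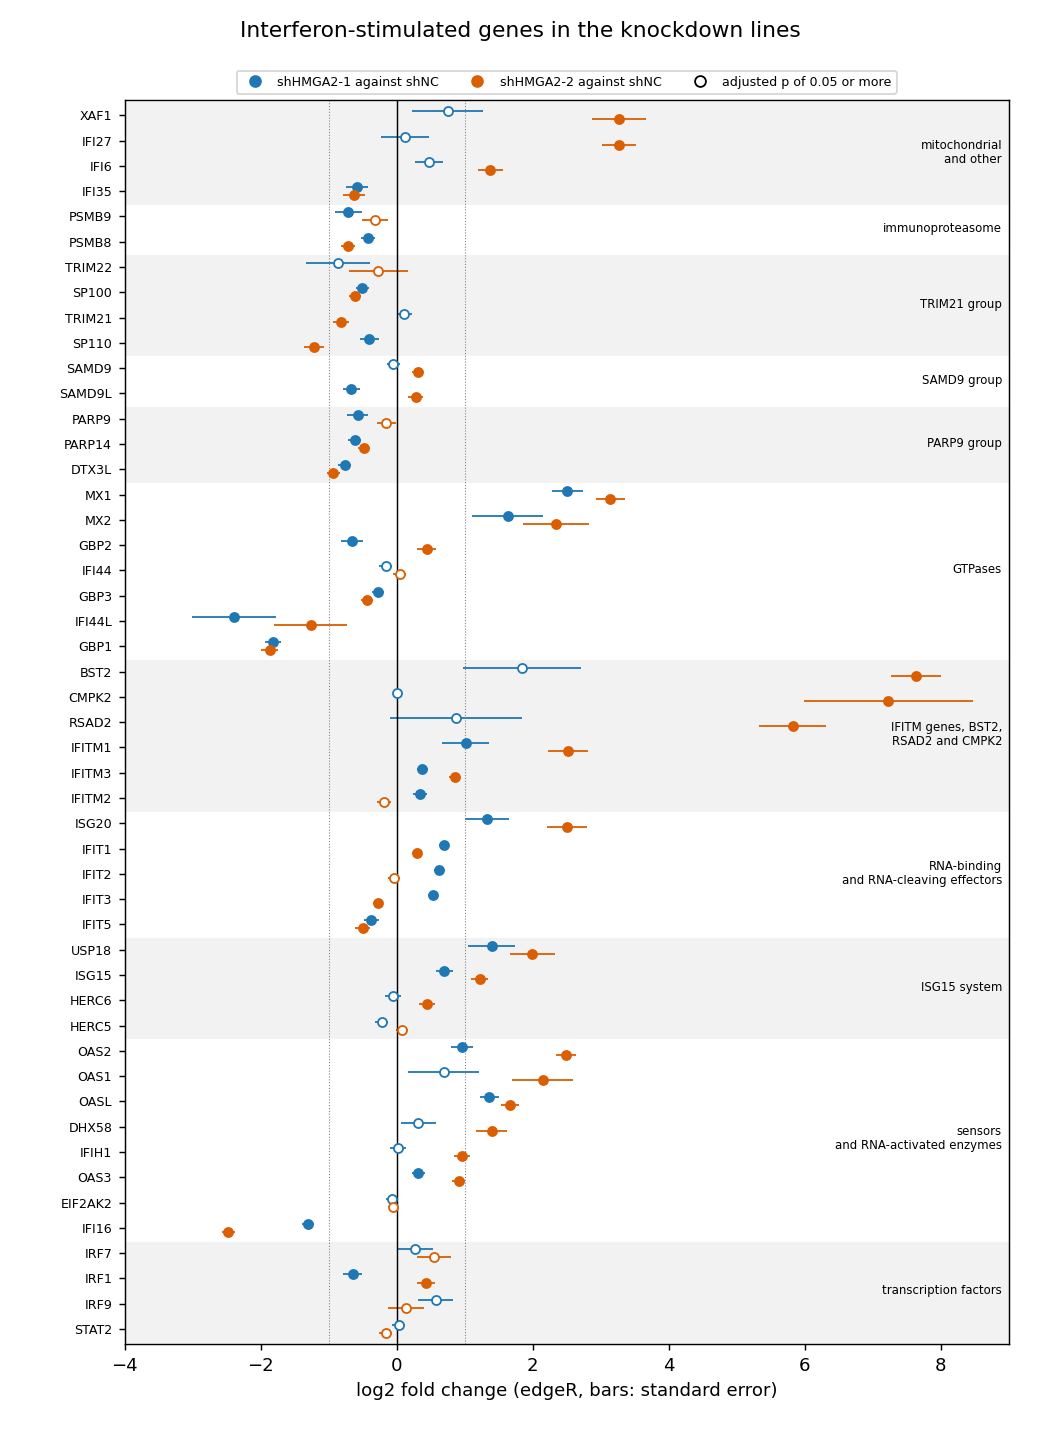
log2 fold change against shNC (x axis) of the 49 interferon-stimulated genes, ordered by role, in shHMGA2-1 (blue) and shHMGA2-2 (orange), with standard errors from edgeR as bars and open circles where the adjusted p was 0.05 or more. The values farthest to the right are those of BST2, CMPK2 and RSAD2 in shHMGA2-2, while GBP1, IFI16 and IFI44L lie left of -1 in both lines; the CMPK2 value is fitted against libraries with 0 counts.

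The summed CPM of the group differed little between libraries, while its summed FPKM was higher in both knockdown lines than in shNC. FPKM carries no TMM factor and divides by exon length, so a count in a short gene such as ISG15 (867 bases) or BST2 (1101 bases) weighs more. The summed raw counts, also without a TMM factor, were 24090 and 24320 in shNC, 24432 and 24544 in shHMGA2-1, then 24799 and 25012 in shHMGA2-2. Most of the genes called higher in shHMGA2-2 lay under 5 FPKM. The summed level of the 49 genes was 1480 and 1495 CPM in shNC, 1406 and 1444 in shHMGA2-1, then 1463 and 1432 in shHMGA2-2. Per exon length the sum was 304 and 307 FPKM in shNC, 342 and 328 in shHMGA2-1, then 366 and 386 in shHMGA2-2. In shNC the highest gene per length was IFI16 at 29.2 ± 1.31 FPKM (SD, n = 2), ahead of IFITM3 at 24.7 ± 0.361 (SD, n = 2) and ISG15 at 24.7 ± 3.12 (SD, n = 2), and the latter genes did not differ beyond their spread. They were followed by IFIT3 at 21.3 ± 0.445 FPKM (SD, n = 2) and IFI44 at 16.1 ± 0.679 (SD, n = 2). Of the 11 genes with a mean under 1 FPKM over the 6 libraries, 8 rose in shHMGA2-2, RSAD2, CMPK2 and XAF1 among them, and 1, IFI44L, fell. Of the 20 genes between 1 and 5 FPKM, 11 rose and 5 fell. Of the 18 genes at 5 FPKM or more, 6 rose, BST2 among them, and 7 fell. RSAD2, CMPK2, XAF1, IFI44L and BST2 passed the filter on low counts with 1 line only, so their moves in these counts are no support. Over all tested genes in the same ranges of level, 31.5%, 30.0% and 28.0% rose and 15.5%, 28.3% and 38.6% fell. Those called higher in shHMGA2-2 were 27.1%, 10.4% and 2.77% of all tested genes in these ranges.

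**Figure D2:**
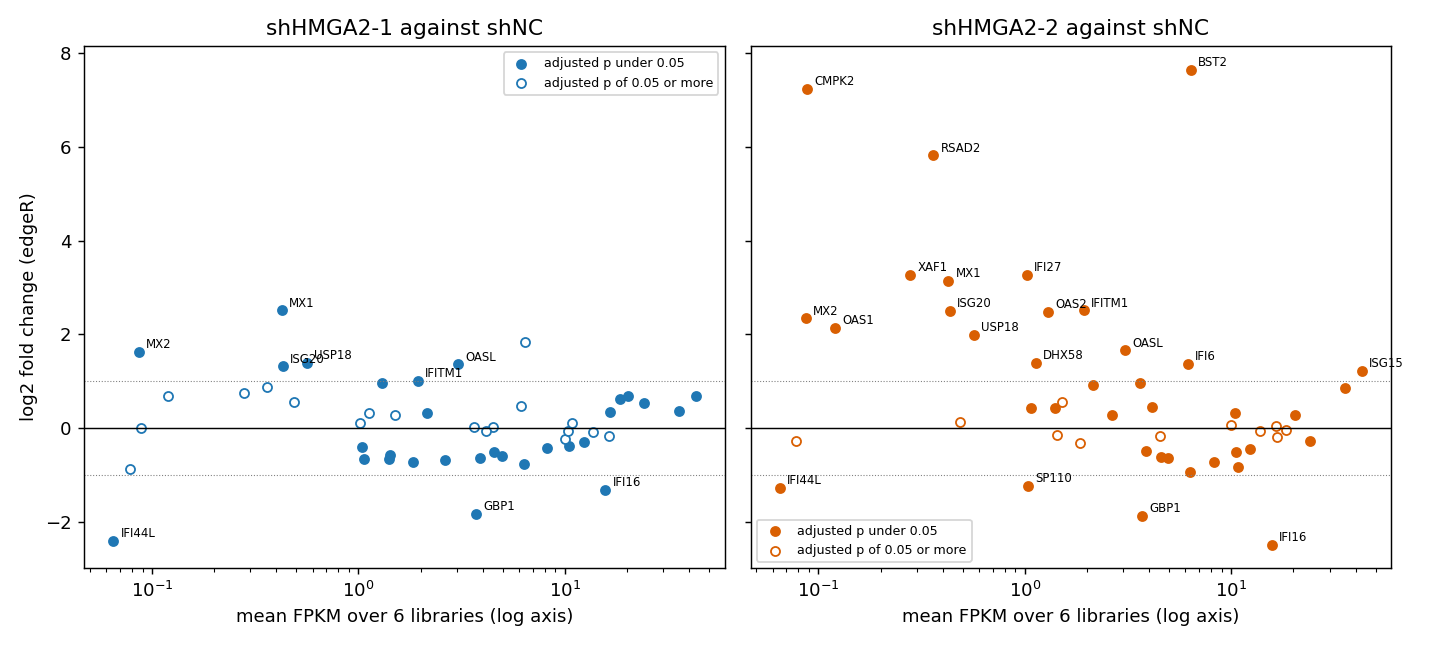
Mean FPKM over the 6 libraries (x axis, log scale) against log2 fold change from edgeR (y axis) for the 49 genes in shHMGA2-1 (left) and shHMGA2-2 (right), with open circles for an adjusted p of 0.05 or more. In shHMGA2-2 most genes above the upper dotted line (2-fold) lie under 5 FPKM. ISG15, IFI6 and BST2 are the genes called higher at 5 FPKM or more.

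Genes that are known markers of leukocytes, which carry interferon-induced RNA, were mostly near the floor. The summed level of 15 leukocyte markers was 2.76 and 3.01 CPM in shNC, 4.78 and 4.30 in shHMGA2-1, then 5.37 and 4.87 in shHMGA2-2. CD8A alone gave 11 and 23, 61 and 63, and 59 and 72 counts of these. CSF1R went the other way, with 26 and 6, 2 and 2, and 1 and 1 counts in the same order. ITGAM had 0 and 2, 1 and 1, and 16 and 5. PTPRC, the pan-leukocyte gene, had 0 to 2 counts in every library, and CD3E, CD3D, CD2, MS4A1 and FCGR3A had 0 in all 6. The 4 fibroblast markers together had 0 to 3 counts and the 4 endothelial markers 47 to 73, of which KDR gave 44 to 61. PECAM1 gave 14 and 11 in shNC, with 2 and 0 in shHMGA2-1 and 2 and 0 in shHMGA2-2. In bulk RNA, fewer expressing cells and less RNA per cell cannot be told apart.

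Promoter sequence was read to show what the 49 genes have in common apart from the measured levels. Windows from 250 bases before to 50 bases after an annotated start were taken from RefSeq (GRCh38.p14), which held 53 windows of 39 of the genes. The core of ISRE was searched as GAAANNGAAA on both strands, overlapping matches included. It occurred in 30 of the 53 windows and in 26 of the 39 genes (66.7%), beside 3.57% of all 35116 windows of this length and 4.38% of all 27305 genes. The GAS element, searched as TTCNNNGAA, which reads the same on both strands, occurred in 12 of the 39 genes (30.8%), beside 9.38% of all genes. Among genes with a window, an ISRE core was found in shHMGA2-2 in 13 of the 19 that rose (68.4%), 9 of the 13 that fell (69.2%) and 4 of the other 7 (57.1%). BST2, RSAD2, XAF1 and CMPK2 are counted there as risen and IFI44L as fallen, although their tests are no support. In shHMGA2-1 it was found in 8 of the 8 genes with a window that rose, 8 of the 15 that fell, IFI44L among them (53.3%), and 10 of the other 16 (62.5%). IFIT2, IFITM2, MX2, OAS2, OASL and USP18 also rose in shHMGA2-1 but had no window and were not searched. These shares were not tested against each other. A match describes these letters and is not shown to be a bound site.

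The following stretches of 40 bases show the core in genes that moved in different ways. They are written 5′ to 3′ on the strand of the gene, with a single chosen core of each in capitals. The stretches of ISG15, IFI27 and IFIT5 each hold another match that is not marked, and in ISG15 it overlaps the marked core. Where the core lies on the opposite strand it reads TTTCNNTTTC. ISG15, ISG20, IFI27, IFITM1, MX1 and RSAD2 stand for genes with a higher level in shHMGA2-2 than in shNC, GBP1, IFIT5 and DTX3L for genes that fell in both lines, and EIF2AK2 for a gene that passed the threshold in neither.
ISG15: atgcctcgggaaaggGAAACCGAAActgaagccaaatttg
ISG20: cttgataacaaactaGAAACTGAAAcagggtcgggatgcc
IFI27: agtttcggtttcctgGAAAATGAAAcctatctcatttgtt
IFITM1: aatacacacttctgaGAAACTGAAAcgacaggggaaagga
MX1: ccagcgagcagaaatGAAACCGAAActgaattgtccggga
RSAD2: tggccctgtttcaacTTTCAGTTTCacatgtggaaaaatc
GBP1: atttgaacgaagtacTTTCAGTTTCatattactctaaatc
IFIT5: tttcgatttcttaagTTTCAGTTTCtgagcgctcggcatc
DTX3L: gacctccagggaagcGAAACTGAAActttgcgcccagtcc
EIF2AK2: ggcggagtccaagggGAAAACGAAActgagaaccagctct

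In the same order these lie at chr1:1013375-1013414 (plus strand), chr15:88638932-88638971 (plus), chr14:94110626-94110665 (plus), chr11:314019-314058 (plus), chr21:41420554-41420593 (plus), chr2:6877617-6877656 (plus), chr1:89065311-89065350 (minus), chr10:89414549-89414588 (plus), chr3:122564317-122564356 (plus) and chr2:37156962-37157001 (minus). Read on its own strand, the core in capitals has the same 10 letters, GAAACTGAAA, in ISG20, IFITM1, RSAD2, GBP1, IFIT5 and DTX3L, and these genes moved in different directions. The windows of IFITM1 (GAAATAGAAA) and IFIT5 (GAAACCGAAA and GAAATCGAAA) hold further cores with other letters. The core of RSAD2 lies in window 2 of that gene, and its window 1 holds none. Whether the letters go with the direction was not tested. The core shown for MX1, which rose in both knockdown lines, begins 11 bases after an annotated start, and another window of MX1 holds a further core.

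Of the transcription factors among the interferon-stimulated genes, IRF1 passed the test in both lines, while STAT2, IRF9 and IRF7 passed it in neither. STAT2, a part of the complex that binds ISRE, had 4.44 ± 0.240 FPKM (SD, n = 2) in shNC, 4.72 ± 0.332 in shHMGA2-1 and 4.32 ± 0.460 in shHMGA2-2, with log2 fold changes of 0.03 and -0.16 that did not pass the test. IRF9, the DNA-binding part of that complex, had log2 fold changes of 0.57 (adjusted p = 0.0946) and 0.14. IRF7, which amplifies interferon production, had 0.27 and 0.55 (adjusted p = 0.0629 in shHMGA2-2). IRF1, a factor that interferon gamma induces, went opposite ways: it had 215 and 213 counts in shNC, with 162 and 126 in shHMGA2-1 and 299 and 310 in shHMGA2-2. The 3 lines did not overlap, with log2 fold changes of -0.65 (SE 0.15, adjusted p = 0.00113) in shHMGA2-1 and 0.43 (SE 0.13, adjusted p = 0.00792) in shHMGA2-2. The rise in shHMGA2-2 had adjusted p-values of 0.0504, 0.0545 and 0.0539 without shNC replicate 1, shNC replicate 2 or shHMGA2-2 replicate 2, while the direct difference of 1.08 (SE 0.14, adjusted p = 6.13e-07) was past the threshold under every alternative tried.

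The oligoadenylate synthetases, which make the messenger that activates the nuclease RNase L on sensing double-stranded RNA, were higher in shHMGA2-2, OAS2 most clearly. OAS2 had 89 and 74 counts in shNC, with 160 and 176 in shHMGA2-1 and 472 and 496 in shHMGA2-2, so each line stood apart from the others. Its log2 fold change was 0.96 (SE 0.16, adjusted p = 4.28e-05) in shHMGA2-1 and 2.49 (SE 0.14, adjusted p = 2.21e-13) in shHMGA2-2. OAS1 was rare, with counts of 4 and 17 in shNC, 16 and 20 in shHMGA2-1, then 60 and 39 in shHMGA2-2. Its shHMGA2-2 counts lay above all others and its log2 fold change was 2.15 (SE 0.45, adjusted p = 0.000242), but it dropped to 1.45 without shNC replicate 1 and reached 3.51 without shNC replicate 2. Against shHMGA2-1 the OAS1 difference was 1.45 (adjusted p = 0.00462), which became 1.09 (adjusted p = 0.129) without shHMGA2-2 replicate 1. OAS3, at 1.49 ± 0.0495 FPKM (SD, n = 2) in shNC, rose by 0.32 in shHMGA2-1 (adjusted p = 0.0154, and 0.0775 and 0.156 without shNC replicate 1 or shNC replicate 2) and by 0.91 in shHMGA2-2 (adjusted p = 1.52e-08) on the log2 scale. OASL, a relative without synthetase activity that enhances RIG-I sensing, rose in both lines, from 139 and 136 counts in shNC to 413 and 333 in shHMGA2-1 and 427 and 496 in shHMGA2-2, which is 2.57-fold (adjusted p = 2.34e-08) and 3.17-fold (adjusted p = 1.18e-10).

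The sensors of viral nucleic acid moved in different directions. IFI16, a DNA sensor and the most abundant of the 49 genes in shNC, fell in both lines, from 2539 and 2706 counts in shNC to 1057 and 1180 in shHMGA2-1 and 550 and 446 in shHMGA2-2. No line overlapped another, and the levels were 2.47-fold (log2 fold change -1.31, SE 0.09, adjusted p = 4.75e-11) and 5.56-fold (log2 fold change -2.48, SE 0.10, adjusted p = 1.69e-16) lower than in shNC. The RNA sensor IFIH1 (MDA5) had 2.60, 2.75 and 5.50 FPKM in shNC, shHMGA2-1 and shHMGA2-2, and rose in shHMGA2-2 by 0.96 on the log2 scale (SE 0.12, adjusted p = 1.14e-07). DHX58 (LGP2), a regulator of RIG-I and MDA5, had 51 and 34 counts in shNC, with 56 and 56 in shHMGA2-1 and 118 and 119 in shHMGA2-2. The shHMGA2-1 and shNC counts lay close together, with a log2 fold change of 0.32 (SE 0.25, adjusted p = 0.362), and it rose 2.63-fold in shHMGA2-2 (adjusted p = 1.08e-05). EIF2AK2 (PKR), the kinase that stops translation on binding double-stranded RNA, stayed between 13.4 and 14.1 FPKM in the line means, with log2 fold changes of -0.08 and -0.06 (SE 0.08 each) that did not pass the test.

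In the ISG15 system, the modifier and the enzyme that removes it rose and the ligases moved less. ISG15, the ubiquitin-like modifier, had 331 and 396 counts in shNC, with 690 and 555 in shHMGA2-1 and 772 and 1020 in shHMGA2-2. All shHMGA2 counts exceeded those of shNC, by 1.62-fold (adjusted p = 0.000122) and 2.33-fold (adjusted p = 7.43e-09). USP18, which removes ISG15 and dampens the interferon receptor, had 14 and 15 counts in shNC, with 39 and 42 in shHMGA2-1 and 54 and 69 in shHMGA2-2, which is 2.63-fold (adjusted p = 0.00293) and 3.98-fold (adjusted p = 1.29e-05) higher. HERC5, the main ligase of ISG15 in human cells, had a log2 fold change of -0.22 in shHMGA2-1 (adjusted p = 0.0621) and 0.07 in shHMGA2-2 (adjusted p = 0.503). HERC6, its neighbour, had -0.06 (adjusted p = 0.75) in shHMGA2-1 and rose by 0.44 in shHMGA2-2 (adjusted p = 0.00183), a call that was lost without shNC replicate 1 (adjusted p = 0.0819).

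The IFIT genes, neighbours on chromosome 10 (89283694 to 89421605) whose products bind viral RNA, did not all move alike. IFIT1, IFIT2 and IFIT3 rose in shHMGA2-1 by 0.69, 0.62 and 0.53 on the log2 scale (SE 0.07 to 0.08, adjusted p = 7.97e-08, 1.65e-06 and 1.68e-06). In shHMGA2-2 IFIT1 rose by 0.29 (adjusted p = 0.00172), IFIT2 had a log2 fold change of -0.04 (adjusted p = 0.684), and IFIT3 fell by 0.28 (adjusted p = 0.00163). Directly compared, all 3 were lower in shHMGA2-2 than in shHMGA2-1, with log2 differences of -0.39, -0.66 and -0.81 (adjusted p = 8.24e-05, 2.55e-07 and 7.2e-10). IFIT5, next to them, fell in both lines (log2 fold changes -0.37 and -0.50, adjusted p = 0.00904 and 0.00034), and its fall in shHMGA2-1 had an adjusted p of 0.117 without shNC replicate 1 and 0.14 without shHMGA2-1 replicate 1. IFIT1, IFIT2 and IFIT3 overlap LIPA in the annotation, so reads of that gene may be among theirs. ISG20, a nuclease that degrades viral RNA, was rare and rose in steps, with counts of 13 and 19 in shNC, 43 and 42 in shHMGA2-1, then 87 and 106 in shHMGA2-2. It was 2.50-fold (adjusted p = 0.00257) and 5.67-fold (adjusted p = 6.33e-08) higher than in shNC, and the shHMGA2-1 value had an adjusted p of 0.0511 without shNC replicate 1.

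**Figure D3:**
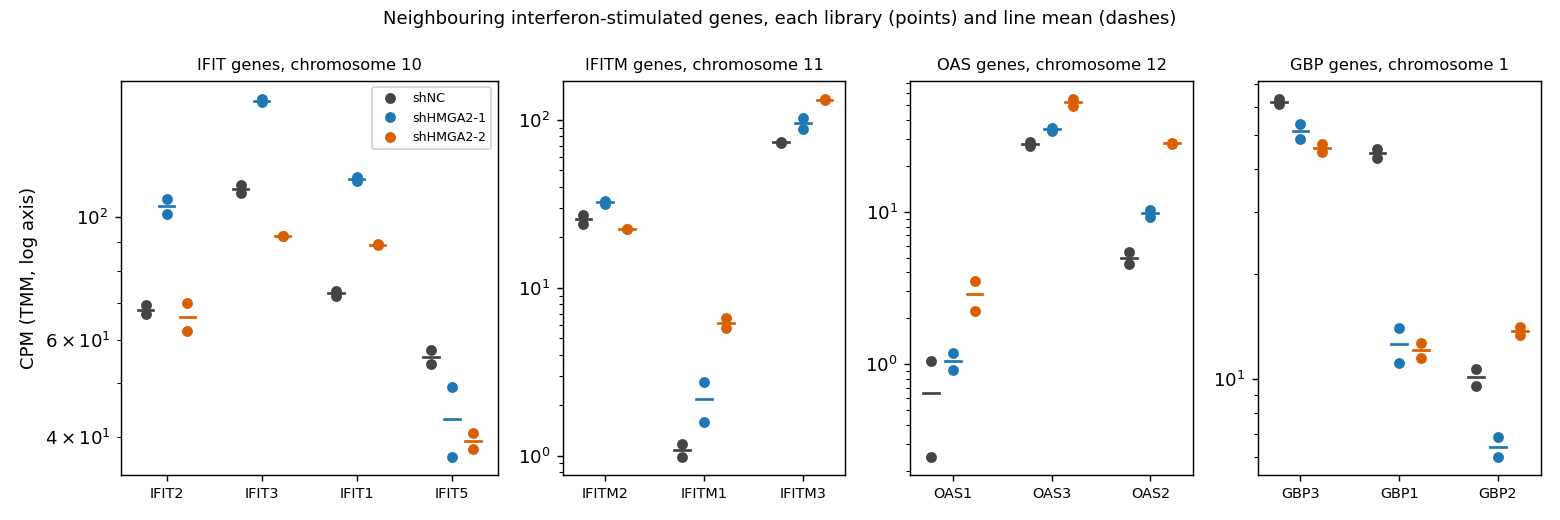
TMM-scaled CPM (y axes, log scale, each panel with its own range) of neighbouring IFIT, IFITM, OAS and GBP genes in shNC (grey), shHMGA2-1 (blue) and shHMGA2-2 (orange), with a point per library and a dash at each line's mean. IFIT1, IFIT2 and IFIT3 are highest in shHMGA2-1, the 3 OAS genes are highest in shHMGA2-2, and GBP1 and GBP2 take different orders of the lines.

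BST2 (tetherin), which holds budding virus particles at the cell surface, was present in shHMGA2-2 and hardly seen in the other lines. It had 0 and 3 counts in shNC, with 9 and 3 in shHMGA2-1 and 338 and 345 in shHMGA2-2, so that it was near the floor outside shHMGA2-2 and at 18.8 ± 0.170 FPKM (SD, n = 2) there. The ratio of shHMGA2-2 to shNC was 215 with a 95% counting interval of 73.4 to 1047, and that of shHMGA2-1 to shNC was 3.79 with an interval of 1.02 to 20.9. The fitted log2 fold change for shHMGA2-1 was 1.84 (SE 0.87, edgeR adjusted p = 0.111). The fitted value for shHMGA2-2 of 7.64 became 6.69 without shNC replicate 1 and 11.4 without shNC replicate 2, which is the library that held the 3 counts. Against shHMGA2-1 it was 5.80 (SE 0.29) and 6.75 without shHMGA2-1 replicate 1. BST2 lies on the minus strand of chromosome 19 from 17402939 to 17405630. Its promoter window at chr19:17405581-17405880 (GRCh38.p14, minus strand, RefSeq) is shown because of this difference and because it holds a pair of overlapping ISRE cores, in capitals, that begin 130 and 124 bases before the start.
BST2: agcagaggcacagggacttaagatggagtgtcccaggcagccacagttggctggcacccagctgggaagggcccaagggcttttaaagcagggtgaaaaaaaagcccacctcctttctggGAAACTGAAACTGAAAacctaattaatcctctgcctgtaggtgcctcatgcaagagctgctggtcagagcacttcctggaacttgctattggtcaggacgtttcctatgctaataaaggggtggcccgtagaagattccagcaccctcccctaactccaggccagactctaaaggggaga

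RSAD2 (viperin), which makes a chain-terminating nucleotide, and CMPK2, a mitochondrial nucleotide kinase, are neighbours on chromosome 2 (6840570 to 6898239) and were seen almost only in shHMGA2-2. RSAD2 had 2 and 1 counts in shNC, with 4 and 2 in shHMGA2-1 and 107 and 86 in shHMGA2-2. The shHMGA2-2 to shNC ratio was 60.8 (95% counting interval 20.5 to 298), and for shHMGA2-1 it was 1.89 (0.404 to 11.7), which did not pass the test. CMPK2 had 0 counts in all 4 libraries of shNC and shHMGA2-1 and 17 and 21 in shHMGA2-2. Taking 3 counts per library as the limit of a count of 0, CMPK2 was at least 5.98-fold higher in shHMGA2-2 than in shNC and at least 6.32-fold higher than in shHMGA2-1. The annotated starts of CMPK2 and RSAD2 overlap on opposite strands. The strand setting of the counting is not given in the sources used here, so reads in the shared stretch cannot be assigned to either.

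The IFITM genes, whose products block virus entry at membranes, differed from each other although they lie side by side on chromosome 11. IFITM1 had 16 and 19 counts in shNC, with 48 and 27 in shHMGA2-1 and 98 and 115 in shHMGA2-2. It was 5.72-fold higher than shNC in shHMGA2-2 (adjusted p = 8.08e-08) and 2.02-fold higher in shHMGA2-1 (adjusted p = 0.0245). The shHMGA2-1 call was lost without shNC replicate 1, shNC replicate 2 or shHMGA2-1 replicate 1, with adjusted p-values of 0.149, 0.0736 and 0.343. IFITM3, at 24.7, 33.6 and 48.4 FPKM in shNC, shHMGA2-1 and shHMGA2-2, rose by 0.38 (adjusted p = 0.000767) and 0.85 (adjusted p = 2.17e-09) on the log2 scale. IFITM2 rose by 0.34 in shHMGA2-1 (adjusted p = 0.0141, and 0.211 without shNC replicate 2) and had a log2 fold change of -0.19 (adjusted p = 0.137) in shHMGA2-2. The IFITM genes are close in sequence, and reads that match several of them could have been split or dropped in the counting.

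**Figure D4:**
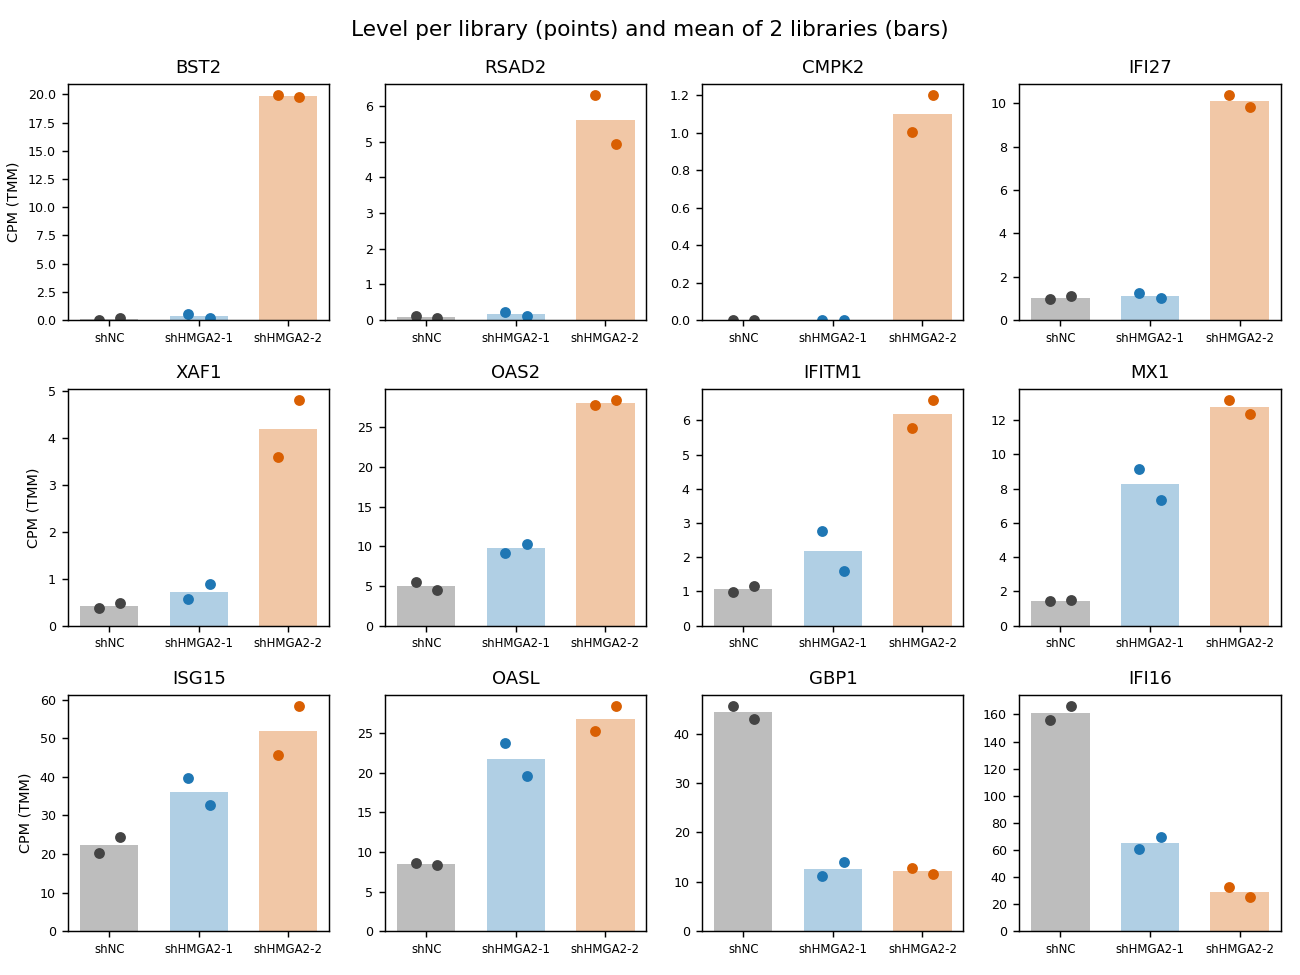
TMM-scaled CPM (y axes from 0, each panel with its own range) of 12 interferon-stimulated genes in the 6 libraries, with a point per library and bars at the mean of 2 libraries. BST2, RSAD2, CMPK2, IFI27 and XAF1 are high in shHMGA2-2 only, MX1 and OASL are high in both knockdown lines, and GBP1 and IFI16 are low in both.

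Among the GTPases, the MX genes rose and GBP1 fell in both lines. MX1, which traps viral ribonucleoproteins, had 23 and 24 counts in shNC, with 159 and 125 in shHMGA2-1 and 223 and 216 in shHMGA2-2. It was 5.69-fold (SE 0.22 on the log2 scale, adjusted p = 3.04e-09) and 8.80-fold (SE 0.21, adjusted p = 4.43e-12) higher than in shNC. MX2, which acts on retroviruses at the nuclear pore, had 8 and 5 counts in shNC, with 26 and 17 in shHMGA2-1 and 26 and 45 in shHMGA2-2. All its shHMGA2 counts exceeded those of shNC, with log2 fold changes of 1.63 (SE 0.52, adjusted p = 0.0181) and 2.34 (SE 0.49, adjusted p = 0.000212). In shHMGA2-1 the MX2 call was lost without shNC replicate 2 (adjusted p = 0.142) and without shHMGA2-1 replicate 1 (adjusted p = 0.129).

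GBP1, a guanylate-binding protein that attacks pathogen vacuoles and is strongly induced by interferon gamma, had 743 and 700 counts in shNC, with 193 and 239 in shHMGA2-1 and 216 and 201 in shHMGA2-2. Both knockdown lines overlapped each other and lay far below shNC, 3.52-fold (SE 0.12 on the log2 scale, adjusted p = 1.46e-11) and 3.66-fold (SE 0.12, adjusted p = 1.73e-12) lower. GBP3, next to it on chromosome 1, fell by 0.28 (adjusted p = 0.0155) and 0.44 (adjusted p = 0.000144) on the log2 scale. The GBP3 call in shHMGA2-1 was lost without shNC replicate 1, shNC replicate 2 or shHMGA2-1 replicate 1, with adjusted p-values of 0.0793, 0.155 and 0.0606. GBP2, in the same cluster, had 156 and 174 counts in shNC, with 119 and 102 in shHMGA2-1 and 239 and 234 in shHMGA2-2. It was lower in shHMGA2-1 (log2 fold change -0.66, adjusted p = 0.00226) and higher in shHMGA2-2 (0.44, adjusted p = 0.0113), with a direct difference of 1.10 (SE 0.15, adjusted p = 1.63e-06). The GBP2 rise in shHMGA2-2 was lost without shNC replicate 1 (adjusted p = 0.117) and without shHMGA2-2 replicate 1 (adjusted p = 0.0735). Reads shared among these paralogs, or with GBP7 where GBP2 overlaps it, may have gone to another gene.

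IFI44L and IFI44, neighbouring genes whose proteins resemble GTPases, had very different levels. IFI44L was rare, with counts of 21 and 25 in shNC, 3 and 6 in shHMGA2-1, then 16 and 4 in shHMGA2-2. Its counts in both knockdown lines lay below those of shNC, with a log2 fold change of -2.40 (SE 0.62) in shHMGA2-1, and its shHMGA2-2 libraries lay far apart. In shHMGA2-2 the log2 fold change was -1.27 (SE 0.53), which became -2.59 without shHMGA2-2 replicate 1 and -0.59 without shHMGA2-2 replicate 2. IFI44L passed the filter on low counts only with the shNC libraries, so its values are a description and its tests no support. Its call in shHMGA2-2 was in any case lost without shHMGA2-2 replicate 2, shNC replicate 1 or shNC replicate 2. IFI44 stood at 16.1, 15.0 and 18.0 FPKM, and its log2 fold changes of -0.16 and 0.04 did not pass the test.

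PARP9, DTX3L and PARP14, neighbours on chromosome 3 (122527924 to 122730840), moved down or did not pass the test. PARP9 and DTX3L form a complex of an ADP-ribosyltransferase and a ubiquitin ligase, and PARP14 is another ADP-ribosyltransferase. DTX3L fell by 0.77 (SE 0.09, adjusted p = 5.76e-07) and 0.93 (SE 0.10, adjusted p = 7.97e-09) on the log2 scale, from 8.68 ± 0.0566 FPKM (SD, n = 2) in shNC to 5.33 ± 0.269 in shHMGA2-1 and 4.94 ± 0.283 in shHMGA2-2. PARP14 fell by 0.62 (adjusted p = 1.01e-05) and 0.48 (adjusted p = 8.31e-05). PARP9 fell by 0.58 in shHMGA2-1 (adjusted p = 0.00379, and 0.135 without shNC replicate 2) and had -0.15 in shHMGA2-2 (adjusted p = 0.375). The starts of PARP9 and DTX3L overlap on opposite strands.

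SAMD9 and SAMD9L, neighbours on chromosome 7 that restrict poxviruses and translation, were higher in shHMGA2-2 than in shHMGA2-1 by 0.37 (adjusted p = 0.00142) and 0.94 (adjusted p = 3.32e-07) on the log2 scale. SAMD9L had 2.65, 1.75 and 3.49 FPKM in shNC, shHMGA2-1 and shHMGA2-2. It fell in shHMGA2-1 by 0.67 (adjusted p = 0.000114), and its rise of 0.28 in shHMGA2-2 (adjusted p = 0.0387) was lost when any of the 4 libraries of shNC and shHMGA2-2 was left out, with adjusted p-values of 0.0985 to 0.209. SAMD9 had -0.05 in shHMGA2-1 (adjusted p = 0.727) and rose by 0.32 in shHMGA2-2 (adjusted p = 0.00395, 0.0602 without shNC replicate 2 and 0.123 without shHMGA2-2 replicate 1). Against shHMGA2-1 the SAMD9 difference had an adjusted p of 0.073 without shHMGA2-2 replicate 1.

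The nuclear body genes SP100 and SP110, side by side on chromosome 2, both fell in both lines. SP110 had 253 and 248 counts in shNC, with 191 and 208 in shHMGA2-1 and 102 and 125 in shHMGA2-2, with no overlap between lines. Its log2 fold change was -0.41 in shHMGA2-1 (SE 0.14, adjusted p = 0.0261) and -1.22 in shHMGA2-2 (SE 0.15, adjusted p = 1.61e-07). The shHMGA2-1 call of SP110 was lost without shNC replicate 1, shNC replicate 2 or shHMGA2-1 replicate 1, with adjusted p-values of 0.127, 0.106 and 0.126. SP100, a restriction factor for DNA viruses, fell by 0.50 (adjusted p = 0.000107) and 0.61 (adjusted p = 3e-06). TRIM21, an intracellular antibody receptor, had a log2 fold change of 0.11 in shHMGA2-1 (adjusted p = 0.484) and fell by 0.82 in shHMGA2-2 (adjusted p = 2.48e-06), from 11.8 to 7.30 FPKM. TRIM22, a ubiquitin ligase, was rare at 0.095, 0.055 and 0.085 FPKM, and its log2 fold changes of -0.87 (SE 0.47) and -0.27 (SE 0.44) did not pass the test.

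PSMB8 and PSMB9, subunits of the immunoproteasome that trims peptides for antigen presentation, overlap on opposite strands of chromosome 6. PSMB8 fell from 10.1 FPKM in shNC to 7.90 and 6.67, which is -0.42 (adjusted p = 0.00197) and -0.72 (adjusted p = 1.61e-06) on the log2 scale. PSMB9 fell by 0.71 in shHMGA2-1 (adjusted p = 0.00607), which was lost without shNC replicate 2 (adjusted p = 0.0938) and without shHMGA2-1 replicate 2 (adjusted p = 0.082). In shHMGA2-2 its log2 fold change of -0.32 (adjusted p = 0.15) did not pass the test.

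Of the remaining genes, IFI27 and IFI6 rose in shHMGA2-2, XAF1 had its highest counts there and IFI35 fell in both lines. IFI27, a mitochondrial protein linked to apoptosis, had 16 and 18 counts in shNC, with 22 and 17 in shHMGA2-1 and 176 and 172 in shHMGA2-2. The shHMGA2-1 counts overlapped those of shNC (log2 fold change 0.12, SE 0.35, adjusted p = 0.839), and those of shHMGA2-2 were 9.62-fold higher than shNC (adjusted p = 3.93e-11). XAF1, which opposes the apoptosis inhibitor XIAP, had 6 and 8, 10 and 15, and 61 and 84 counts in shNC, shHMGA2-1 and shHMGA2-2, a log2 fold change of 0.75 (SE 0.52, adjusted p = 0.296) in shHMGA2-1 and a level 9.63-fold that of shNC in shHMGA2-2. IFI6, which protects cells from death and blocks flavivirus replication, had 57 and 54, 81 and 82, and 149 and 156 counts in the same order. All IFI6 counts of the knockdown lines exceeded those of shNC, with a log2 fold change of 0.47 (SE 0.21, adjusted p = 0.0794) in shHMGA2-1 and 1.38 (SE 0.19, adjusted p = 9.71e-07) in shHMGA2-2. IFI35, a partner of NMI, fell by 0.59 (adjusted p = 0.0071) and 0.63 (adjusted p = 0.00192), and its shHMGA2-1 value had an adjusted p of 0.131 without shNC replicate 1 and 0.0927 without shHMGA2-1 replicate 2.

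The genes upstream of the interferon-stimulated genes were taken from a list of 38 ligands, receptors, kinases, factors, sensors and inhibitors, of which 27 had enough counts to be tested. In shHMGA2-1, 6 of the 27 rose and 6 fell, beside 15.8% and 17.7% of all tested genes. In shHMGA2-2, 11 rose and 9 fell, beside 29.5% and 29.2%. IFNA1, IFNA2, IFNB1, IFNE, IFNK, IFNG, IFNL1, IFNL2 and IFNL3, the interferon genes of the list, had 0 counts in all 6 libraries, which allows up to 0.184 CPM each in the least sensitive library. These interferon genes were named after their values were seen.

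Of the pathway genes with the largest called changes, IFNLR1, the receptor chain specific to interferon lambda, had 3 and 9 counts in shNC, with 11 and 22 in shHMGA2-1 and 45 and 45 in shHMGA2-2, with a log2 fold change of 2.80 in shHMGA2-2 (adjusted p = 2.5e-05). IL10RB, the chain it pairs with, went the other way in that line, with 88 and 80, 118 and 86, and 38 and 47 counts in shNC, shHMGA2-1 and shHMGA2-2 and a log2 fold change of -1.06 (adjusted p = 0.00046). IRF5, a factor downstream of Toll-like receptors, rose in both lines by 1.94 and 2.09 on the log2 scale (adjusted p = 6.5e-05 and 6.8e-06). MAVS, the mitochondrial adaptor of RIG-I and MDA5, fell from 3747 and 3781 counts in shNC to 1726 and 1696 in shHMGA2-1 and 1697 and 1680 in shHMGA2-2. The MAVS log2 fold changes were -1.22 and -1.24, and the knockdown lines lay together well below shNC. IKBKE, a kinase that phosphorylates IRF3, fell by 1.27 and 0.53, and SOCS3, an inhibitor of JAK signalling, by 0.56 and 1.06.

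A further 44 interferon-induced genes outside the 49 were looked at in the same way, of which 36 were tested. In shHMGA2-1, 6 of the 36 rose and 10 fell, where 15.8% of all tested genes rose and 17.7% fell. In shHMGA2-2, 17 rose and 7 fell, where the shares over all tested genes were 29.5% and 29.2%. RTP4 and TNFSF10 passed the filter on low counts only with the shHMGA2-2 libraries, and of the other 34 genes 5 rose and 10 fell in shHMGA2-1 and 15 rose and 7 fell in shHMGA2-2. RTP4, a chaperone of receptors that limits flaviviruses, had 0 counts in both shNC libraries, with 10 and 7 in shHMGA2-1, then 11 and 21 in shHMGA2-2. TNFSF10 (TRAIL), a death ligand, had 6 and 1, 5 and 8, and 38 and 38 counts in shNC, shHMGA2-1 and shHMGA2-2, with a fitted log2 fold change of 3.32 in shHMGA2-2. GBP4, of the same family as GBP1, rose by 2.19 in shHMGA2-2 (adjusted p = 5.5e-06), with 92 and 97 counts beside 30 and 9 in shNC. LY6E, a membrane protein that restricts coronaviruses, rose in both lines by 1.90 and 1.63 on the log2 scale. NLRC5, the transactivator of MHC class I genes, fell by 1.40 and 0.59. TRIM34 had 70 and 66, 32 and 21, and 4 and 2 counts in the same order of lines, and its reads may be shared with overlapping TRIM genes.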

How the data were processed

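The authors deposited raw counts per gene, whole numbers without normalization, and FPKM values made from the same counts by exonic size and library total; 100% of FPKM values were recomputed within a tolerance of 0.005. Per the labels and the submitters' processing notes, mRNA was captured, and HISAT2 version 2.2.1, HTSeq version 0.6.1 and GRCh38.p13 are named. The annotation release and strand setting are not given in the sources used here, and 27 of the 49 genes overlap a gene on the other strand and 12 on the same strand. All 49 lay on the same chromosome in GENCODE version 29, 9 with the same start and end. Gene coordinates are those of the deposited table.

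Groups and replicate numbers came from the sample titles. The counts were fitted in edgeR version 4.0.16 (R version 4.3.3) with TMM scaling, filterByExpr by line (16110 genes), a model of 3 lines and, separately, of 4 shHMGA2 against 2 shNC libraries, and its quasi-likelihood test, with p-values adjusted by the Benjamini-Hochberg method across all tested genes. Standard errors were derived from the fold change and its F statistic. On simulated counts the fits were tested for recovery of known changes. Ratios against counts of 1 to 3 carry an exact 95% interval for counting error; reads carry no molecular identifiers.

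Alternatives were other scaling factors, DESeq2 version 1.42.0, other filters, limma version 3.58.1 on log2(FPKM + 1) or log2(FPKM + 0.1), the compared lines alone, a replicate block, and each library left out. A block with crossed numbers was added after seeing the data. Members and lists were chosen with earlier results of these data known. The members called in any comparison are named with each library's counts, all others with a level or change, and up to 6 genes each of the pathway and further lists, by largest change among called genes. Promoter motifs were searched in python version 3.11.15. A gene of the pathway list is counted but not reported here. Sample columns left unused numbered 0.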

Additional observations from a re-analysis of the deposited data

Results flagged for a closer look

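For 13 of the 49 interferon-stimulated genes the effect against shNC differed between the knockdown lines by at least 2-fold. The difference itself was past the threshold in the edgeR quasi-likelihood test (adjusted p over all tested genes). These were 12 higher and 1 lower in shHMGA2-2, where 7.83% of all tested genes were called higher and 7.27% lower. BST2, RSAD2, CMPK2 and XAF1 entered the test only because their shHMGA2-2 counts passed the low-count filter. For these 4 genes the test is no support and the values are a description. Of the 44 genes that did not pass the filter through 1 line alone, 8 were called higher and 1 lower. The values are log2 differences, shHMGA2-2 over shHMGA2-1.

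Where shHMGA2-1 was near the floor, CMPK2 had a fitted difference of 7.23, which depends on the prior count because both shHMGA2-1 libraries had 0 counts, and the lower bound is 6.32-fold. BST2 differed by 5.80 and RSAD2 by 4.95. Among genes with more counts in shHMGA2-1, IFI27 differed by 3.15, XAF1 by 2.52, OAS2 by 1.52, IFITM1 by 1.50 and OAS1 by 1.45. ISG20 differed by 1.18 and DHX58 by 1.08. GBP2 and IRF1, which lay below shNC in shHMGA2-1 and above it in shHMGA2-2, differed by 1.10 and 1.08. IFI16, with a difference of -1.17, was the gene of the 13 that was lower in shHMGA2-2. Each knockdown line is 1 clone, so the shRNA and the clone cannot be told apart.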

How the results depend on the processing

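Of 100 tests of the 49 genes past the threshold in the comparisons of single lines, 74 stayed past it under every alternative and 26 were lost under at least 1. None changed direction. These tests include those of the 5 genes that passed the low-count filter with 1 line only. The numbers kept were 17 of 30 in shHMGA2-1, 32 of 38 in shHMGA2-2 and 25 of 32 between the knockdown lines. Leaving out 1 library ended 11, 6 and 7 of these calls, with adjusted p-values from 0.0504 to 0.413. ISG15 (highest adjusted p = 0.0835, without shHMGA2-2 replicate 2), OASL (0.291, without the same), HERC5 (0.058, without the same), PARP9 (0.211, without shHMGA2-2 replicate 1) and PSMB8 (0.131, without the same) were so affected between the knockdown lines, and the others are given beside their results.

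With limma on log2(FPKM + 1), the genes that fell in shHMGA2-1 numbered 8, and those called were 0 higher in shHMGA2-1 (0 also at an unadjusted p under 0.05), 8 higher and 2 lower in shHMGA2-2, 3 higher and 0 lower (0 unadjusted) between the knockdown lines, and 1 higher with the shHMGA2 libraries as 1 group. The pseudocount shrinks changes of rare genes. With log2(FPKM + 0.1), 9 fell and 3 were called higher in shHMGA2-1, and 2 were called lower in shHMGA2-2. With a mean of at least 1 FPKM, which left 38 genes, those called higher were 2 in shHMGA2-1, 8 in shHMGA2-2, 7 between the knockdown lines and 1 in the single group. For the single group, DESeq2 called 9 higher and 2 lower, the mean of the contrasts of the 3-line model 12 and 3, and no filter on low counts 2 lower. Leaving out 1 library gave 0 to 3 higher and 0 to 2 lower there, with edgeR calling 0 either way without shNC replicate 1 (4 higher and 2 lower at an unadjusted p under 0.05) or without shNC replicate 2 (6 and 2). Between the knockdown lines the genes called lower numbered 1 to 2, with 2 without shHMGA2-1 replicate 2.

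Same-numbered libraries of different lines were not shown to be paired (correlations of deviations -0.024, 0.0036 and -0.179). A replicate block left 14 rising and 16 falling genes in shHMGA2-1, 24 and 12 in shHMGA2-2, 24 and 8 between the knockdown lines, and called 1 higher in the single group. Crossing the numbers of shHMGA2-1 in the block gave 24 and 8 between the knockdown lines. Low counts limit precision, with standard errors in shHMGA2-1 of 0.62 for IFI44L and 0.52 each for MX2 and OAS1 on the log2 scale.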
